A study of Homo sapiens with 4 samples.

Results

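Glycolysis, glucose metabolism and hypoxia genes were examined in LS180, an established human colon carcinoma cell line, with and without RBM35A, an epithelial RNA-binding protein now named ESRP1 that controls splicing. The 34 genes of this set were listed by role: glycolytic, gluconeogenic and pentose phosphate enzymes, their transporters and regulators, and targets of the hypoxia response. Of these, 32 had a probe set annotated to exactly 1 gene symbol on the Affymetrix HG-U95Av2 array, among 8225 genes in all, and 27 reached a log2 signal of 5 on at least 1 array, among 3588 such genes. RBM35A+ cells were Tet-off LS180-RBM35A cells, in which leaving out doxycycline for at least 6 days restored the protein. RBM35A- cells were kept in doxycycline; the labels name them as the parental cells without stating whether they held the construct. RNA was taken from polysomes, collected on sucrose gradients after cycloheximide, and as total RNA after TRIZOL extraction; the labels list the polysomal samples as polyA RNA. RNA fraction therefore changed together with extraction and any such selection. The 4 arrays were polysomal RNA of RBM35A+ cells, polysomal RNA of RBM35A- cells, total RNA of RBM35A+ cells and total RNA of RBM35A- cells. Each group was a single array, so none of the differences has a replicate check, and the presence of RBM35A cannot be told apart from the absence of doxycycline or, if the parental cells lacked the construct, from the cell line.

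Glycolysis splits glucose into pyruvate in the cytosol, and pyruvate is then turned into lactate or enters mitochondria. Gluconeogenesis runs the route backwards past its irreversible steps, and the pentose phosphate pathway draws off glucose 6-phosphate for NADPH and ribose. When oxygen is short, hypoxia-inducible factor (HIF) binds short hypoxia response elements and raises many glycolytic genes together with genes for vessel growth and mitochondrial turnover. Carcinoma cells, including those of colon, are known for a high flow through glycolysis.

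Promoter sequence is shown for 3 genes, PKM, BNIP3 and ALDOC. PKM was higher in RBM35A+ cells in both RNA fractions. The RBM35A+ minus RBM35A- differences of BNIP3 and ALDOC in polysomal RNA were among the lowest of the set. Sequences are from RefSeq, build GRCh38.p14, cover the 250 bases before the annotated start and read 5′ to 3′ along the gene. Capitals mark matches to the HIF core letters ACGTG or GCGTG on either strand, where the palindrome CACGTG holds 2 overlapping matches. The PKM window is chr15:72231191-72231440 (minus strand), that of BNIP3 is chr10:131981924-131982173 (minus strand), and that of ALDOC is chr17:28576896-28577145 (minus strand).
PKM: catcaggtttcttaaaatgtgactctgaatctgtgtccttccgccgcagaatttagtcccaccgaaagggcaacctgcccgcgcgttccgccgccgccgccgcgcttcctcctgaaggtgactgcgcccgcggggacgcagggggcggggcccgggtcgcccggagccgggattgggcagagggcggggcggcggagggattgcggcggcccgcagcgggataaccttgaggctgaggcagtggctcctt
BNIP3: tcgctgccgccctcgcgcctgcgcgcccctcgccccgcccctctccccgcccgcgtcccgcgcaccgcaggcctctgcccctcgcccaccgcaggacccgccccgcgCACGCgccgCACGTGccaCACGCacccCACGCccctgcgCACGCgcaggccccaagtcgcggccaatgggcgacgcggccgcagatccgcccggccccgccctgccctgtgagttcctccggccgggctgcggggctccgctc
ALDOC: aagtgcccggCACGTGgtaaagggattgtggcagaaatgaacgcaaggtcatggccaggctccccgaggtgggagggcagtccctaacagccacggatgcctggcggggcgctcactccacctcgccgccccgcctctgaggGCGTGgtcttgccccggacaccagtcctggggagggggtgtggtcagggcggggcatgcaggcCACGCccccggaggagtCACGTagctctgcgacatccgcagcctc

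The PKM window held 0 matches, that of BNIP3 held 6 and that of ALDOC held 5. The LDHA window also held 5, with RBM35A differences of −0.26 in polysomal and −0.05 in total RNA. That of ALDOA, at −0.50 in polysomal RNA, held 1. Those of PGAM1, TPI1 and TKT, all within 1.5-fold, held 0 as well. Whether matches and RBM35A differences go together was not tested. Of the 30 genes of the set with a sequence in the table, 18 (60%) held a match, against 59.2% of the 3031 analysed genes with a sequence and 43.1% of all 27305 windows. The set's share was thus close to that of the genes analysed. NDRG1, PCK1, SLC2A3 and VEGFA had no entry.

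Signal was read as log2 values that the authors made with GCRMA. Values under a floor of 5 were raised to 5 before differences were taken, so where 1 of 2 values was floored the true difference is at least as large as given, and where both were it is unknown. Of 12626 probe sets, 4312 reached 5 on each polysomal array and 4269 on each total RNA array. RBM35A (ESRP1) had 0 probe sets in the annotation, and its presence is taken from the labels. Of 14 intestinal epithelial markers 13 were analysed, with values between 8.03 and 13.86, whereas 1 of 6 haematopoietic markers (HBB) and 1 of 7 fibroblast and endothelial markers (COL1A1) were. The SD of a single probe set's difference, taken from the disagreement between probe sets of 339 genes, was 0.20 for RBM35A in polysomal RNA and 0.19 in total RNA. It covers probes and not cultures.

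**Figure D1:**
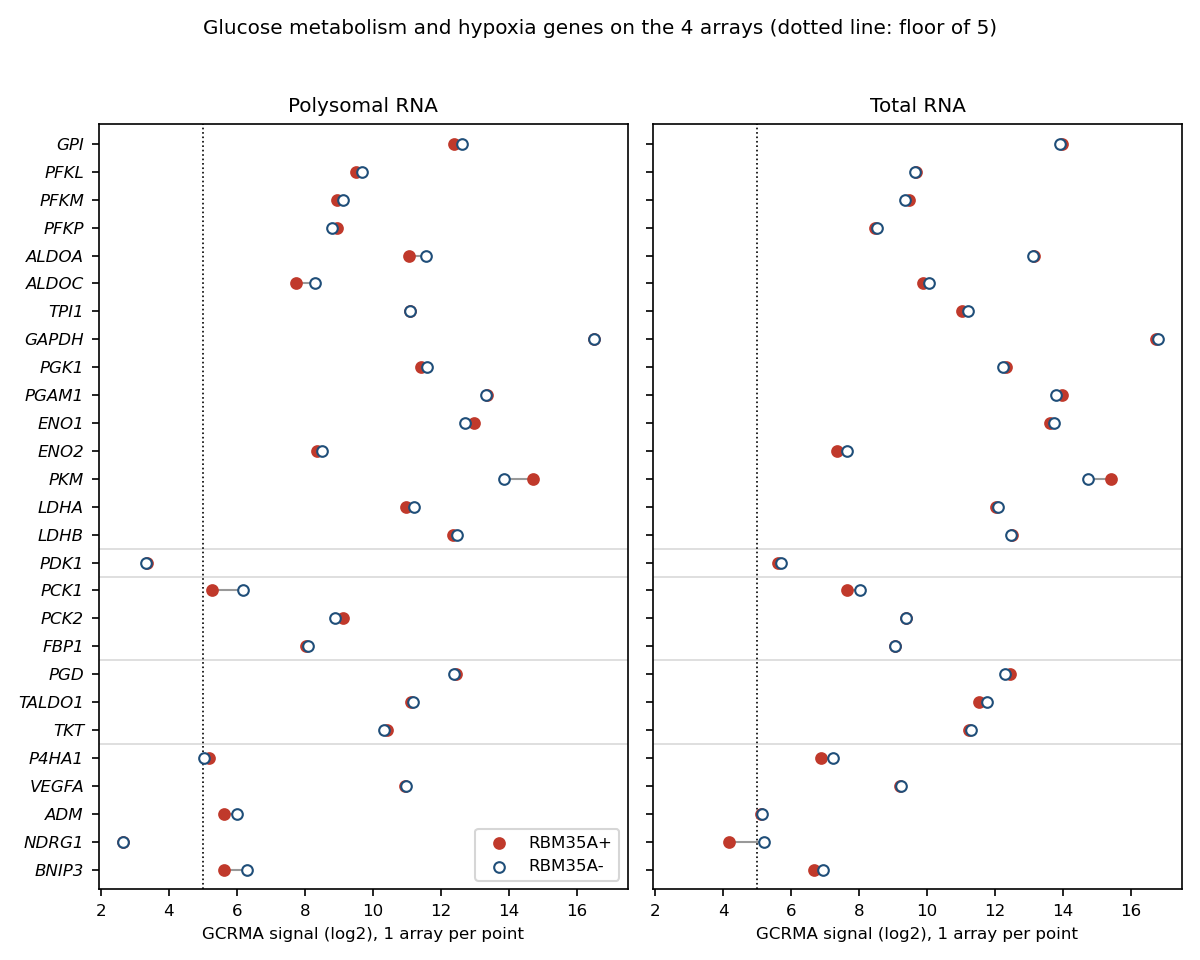
GCRMA signal (log2) of the 27 analysed genes in polysomal RNA (left) and total RNA (right), with filled points for RBM35A+ and open points for RBM35A- cells, 1 array each, and grey lines parting glycolysis, PDK1, gluconeogenesis, the pentose phosphate pathway and hypoxia targets. PKM is apart to the right in RBM35A+ cells in both panels (RBM35A+ 14.70 against RBM35A- 13.86 in polysomal RNA, and RBM35A+ 15.41 against RBM35A- 14.73 in total RNA), while most pairs of points nearly coincide.

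Pyruvate kinase stood apart from the rest of glycolysis. PKM, which makes pyruvate and ATP in the last step and whose splice forms differ between tissues and tumours, read 14.70 in polysomal RNA of RBM35A+ cells, against 13.86 in RBM35A- cells. In total RNA it read 15.41 in RBM35A+ cells, against 14.73 in RBM35A- cells. The log2 difference was thus 0.84 (1.80-fold) in polysomal RNA and 0.68 (1.60-fold) in total RNA, each more than 3 times the SD between probe sets. It ranked 3 from the highest of 3588 genes in polysomal RNA and 28 in total RNA. PKM was the 1 analysed member at least 1.5-fold higher in either fraction (3.70% of members), against a background of 0.725% of all genes in polysomal RNA and 1.42% in total RNA. The value rests on a single probe set, since the second one annotated to PKM was below the floor on all arrays. With the mean of both the differences were 0.42 in polysomal and 0.34 in total RNA, under 1.5-fold. The annotation does not say which splice forms of PKM the probe set detects.

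The other steps from GAPDH down to lactate showed no such difference. PGK1, the first ATP-forming enzyme, differed by −0.20 in polysomal and 0.10 in total RNA, and PGAM1, the mutase that follows it, by 0.03 in polysomal and 0.18 in total RNA. The enolases came next: ENO1, the widely expressed form, differed by 0.25 in polysomal and −0.11 in total RNA, and ENO2, the form best known from neurons, by −0.15 in polysomal and −0.32 in total RNA. Lactate dehydrogenase A, which favours lactate formation, read 10.97 in polysomal RNA of RBM35A+ cells, against 11.23 in RBM35A- cells, a difference of −0.26, and differed by −0.05 in total RNA. Its partner subunit LDHB differed by −0.12 in polysomal and 0.02 in total RNA. All of these were within 1.5-fold, and ENO1 was the one gene among them above 0 by more than the SD between probe sets in polysomal RNA. The probe set of ENO1 is of a kind that can bind related sequences, as is the one used for GAPDH. GAPDH, often used as a loading control, differed by 0.00 in polysomal RNA and −0.06 in total RNA. Its probe set held rank 2 on both polysomal arrays, where quantile normalization assigns equal ranks equal values.

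In the steps before GAPDH the aldolases were lower in polysomal RNA of RBM35A+ cells. In total RNA ALDOA was level and ALDOC differed by −0.19. ALDOA, the muscle-type aldolase that is common in tumours, read 11.07 in polysomal RNA of RBM35A+ cells, against 11.57 in RBM35A- cells, and 13.13 in total RNA of both. ALDOC, known mainly from brain, read 7.73 in polysomal RNA of RBM35A+ cells, against 8.29 in RBM35A- cells. In total RNA ALDOC read 9.88 in RBM35A+ cells, against 10.06 in RBM35A- cells. The polysomal differences, −0.50 for ALDOA and −0.56 for ALDOC, were just short of 1.5-fold, which is 0.585 in log2. The isomerase GPI, which opens the path after hexokinase, differed by −0.22 in polysomal and 0.07 in total RNA. The phosphofructokinases, which catalyse the committed step, split in direction: PFKL at −0.17 and PFKM at −0.16 in polysomal RNA, but PFKP at 0.14. In total RNA these 3 lay between −0.07 and 0.13. TPI1, which interconverts the triose phosphates, differed by −0.01 in polysomal and −0.17 in total RNA. None (0) of these 7 genes was past 1.5-fold in either fraction.

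Entry points of the pathway gave little signal. The hexokinase HK2, the glucose transporters SLC2A1 and SLC2A3, and the kinase-phosphatases PFKFB3 and PFKFB4, which set the level of an activator of phosphofructokinase, were below 5 on all 4 arrays. HK1 and CA9 were not analysed here. PDK1, which holds pyruvate dehydrogenase inactive and so keeps pyruvate out of mitochondria, read 5.62 in total RNA of RBM35A+ cells, against 5.71 in RBM35A- cells. It read 3.34 on both polysomal arrays, below the floor, where its difference is unknown.

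**Figure D2:**
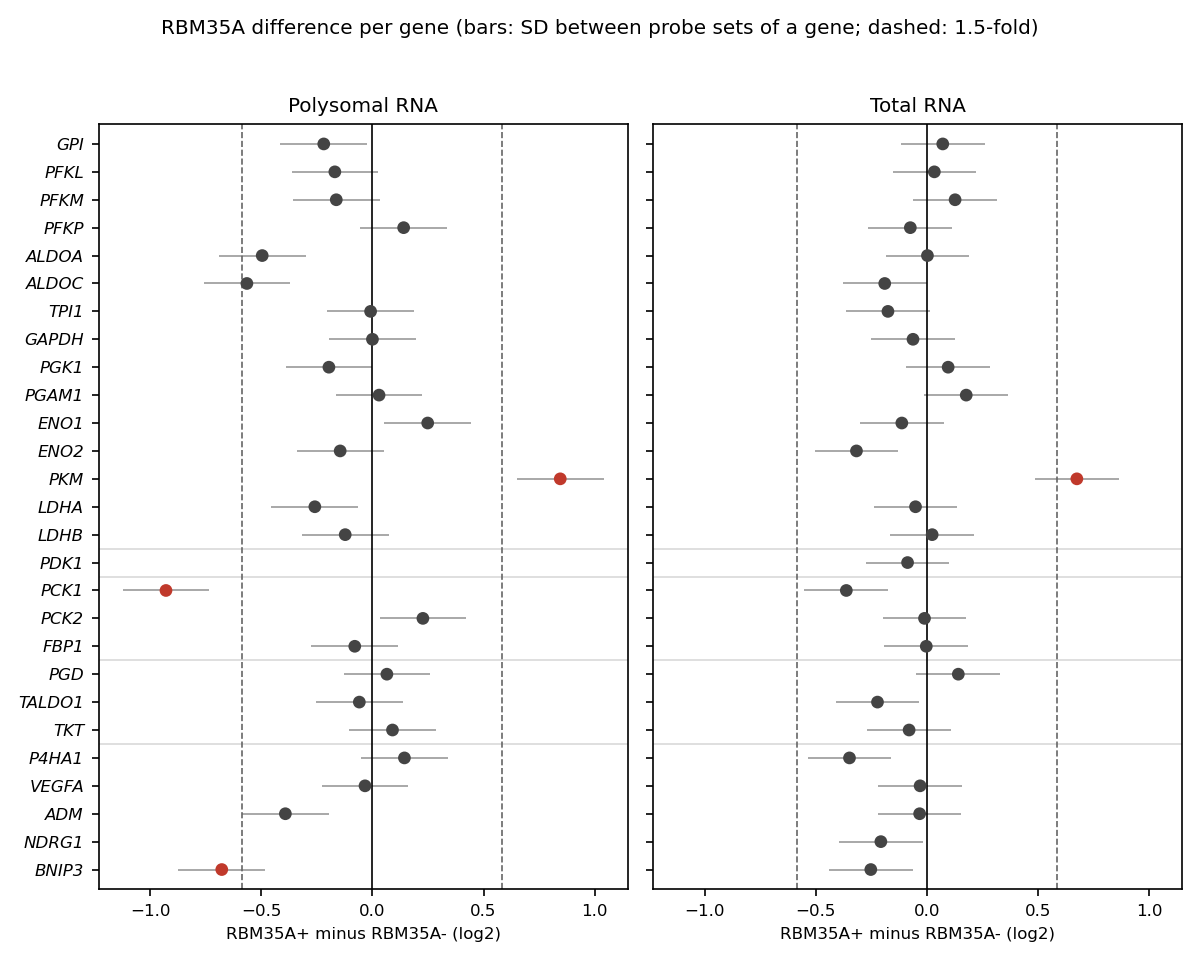
Log2 difference RBM35A+ minus RBM35A- of each analysed gene in polysomal RNA (left) and total RNA (right); bars are the SD between probe sets of a gene, dashed lines mark 1.5-fold, red points lie past it, and differences with both values under the floor are not drawn. PKM lies above 1.5-fold in both panels (0.84 in polysomal and 0.68 in total RNA), and PCK1 (−0.93) and BNIP3 (−0.68) lie below it in polysomal RNA.

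Of the gluconeogenic enzymes, PCK1 was lower in RBM35A+ cells. PCK1, the cytosolic carboxykinase that commits oxaloacetate to glucose, read 5.27 in polysomal RNA of RBM35A+ cells, against 6.19 in RBM35A- cells, a difference of −0.93 (1.90-fold lower). In total RNA it read 7.66 in RBM35A+ cells, against 8.02 in RBM35A- cells, a difference of −0.36. RBM35A+ cells were lower in both fractions, with the 7th lowest of all polysomal differences. A second probe set read 3.39 in polysomal RNA of RBM35A+ cells, against 4.79 in RBM35A- cells, both under the floor, and differed by −0.39 in total RNA. Both probe sets are of a kind that can bind related sequences, so the gene is uncertain, and the polysomal values lie near the floor: with a floor of 6 the difference was −0.19, and with the mean of the probe sets −0.46. The mitochondrial carboxykinase PCK2 went the other way in polysomal RNA, at 0.23, and was at −0.01 in total RNA. FBP1, the phosphatase that reverses the committed step of glycolysis, was at −0.08 in polysomal RNA and read 9.06 in total RNA of both.

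The pentose phosphate enzymes stayed close to 0. PGD, the second NADPH-forming enzyme, differed by 0.06 in polysomal and 0.14 in total RNA. The sugar-exchanging enzymes of the non-oxidative branch were TALDO1 (−0.06 in polysomal and −0.22 in total RNA) and TKT (0.09 in polysomal and −0.08 in total RNA). None (0) of the 3 passed 1.5-fold in either fraction.

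Among hypoxia targets, BNIP3 was lower in polysomal RNA of RBM35A+ cells and VEGFA was level. BNIP3, a mitochondrial protein that promotes mitophagy, read 5.62 in polysomal RNA of RBM35A+ cells, against 6.29 in RBM35A- cells, a difference of −0.68 (1.60-fold lower). In total RNA it read 6.68 in RBM35A+ cells, against 6.93 in RBM35A- cells, a difference of −0.25. With a floor of 6 the polysomal difference of BNIP3 was −0.29, so it too rests on low values. ADM, which encodes the vasodilator peptide adrenomedullin, read 5.61 in polysomal RNA of RBM35A+ cells, against 6.005 in RBM35A- cells, a difference of −0.39, and was at −0.03 in total RNA. The values of ADM lay near the floor, and with a floor of 6 its polysomal difference was −0.005. P4HA1, a collagen prolyl hydroxylase subunit, read 6.88 in total RNA of RBM35A+ cells, against 7.23 in RBM35A- cells. Its total RNA difference was −0.35. In polysomal RNA P4HA1 read 5.19 in RBM35A+ and 5.05 in RBM35A- cells, near the floor. That difference of 0.14 was under the SD between probe sets, and with a floor of 6 it was 0.00. NDRG1, a stress-induced protein linked to differentiation, read 4.16 in total RNA of RBM35A+ cells, against 5.21 in RBM35A- cells. Its difference is a bound of −0.21 or lower with the floor and −1.05 as deposited, and on both polysomal arrays NDRG1 lay below the floor, at 2.64 in RBM35A+ and 2.65 in RBM35A- cells. NDRG1 was analysed through its total RNA value in RBM35A- cells alone, which fixes the sign of its difference. The other 4 analysed hypoxia targets lay between −0.35 and −0.03 in total RNA, within 1.5-fold.

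VEGFA, the main growth factor of blood vessels, was measured by 3 probe sets that disagreed. The one used for the gene read 10.94 in polysomal RNA of RBM35A+ cells, against 10.98 in RBM35A- cells, and a second differed by −0.07. The third, whose name marks shared sequence, read 6.08 in polysomal RNA of RBM35A+ cells, against 6.84 in RBM35A- cells, a difference of −0.76, with 0.09 in total RNA. The array carries control probe sets along the GAPDH transcript, and these also differed by place in polysomal RNA. Near its 5′ end GAPDH read 12.03 in RBM35A+ cells, against 12.81 in RBM35A- cells, a difference of −0.79. The middle probe set differed by −0.33 and the 3′ one by −0.13, while in total RNA the 3 lay between −0.16 and −0.03. Beta-actin controls gave −0.86, −0.44 and −0.02 in polysomal RNA. Signal away from the 3′ end was thus lower on the RBM35A+ polysomal array for these 2 transcripts. Where the other probe sets lie on their transcripts was not used, and the part of 5′ signal in the polysomal values of PKM, PCK1, BNIP3, ALDOA, ALDOC and the third VEGFA probe set was not tested.

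**Figure D3:**
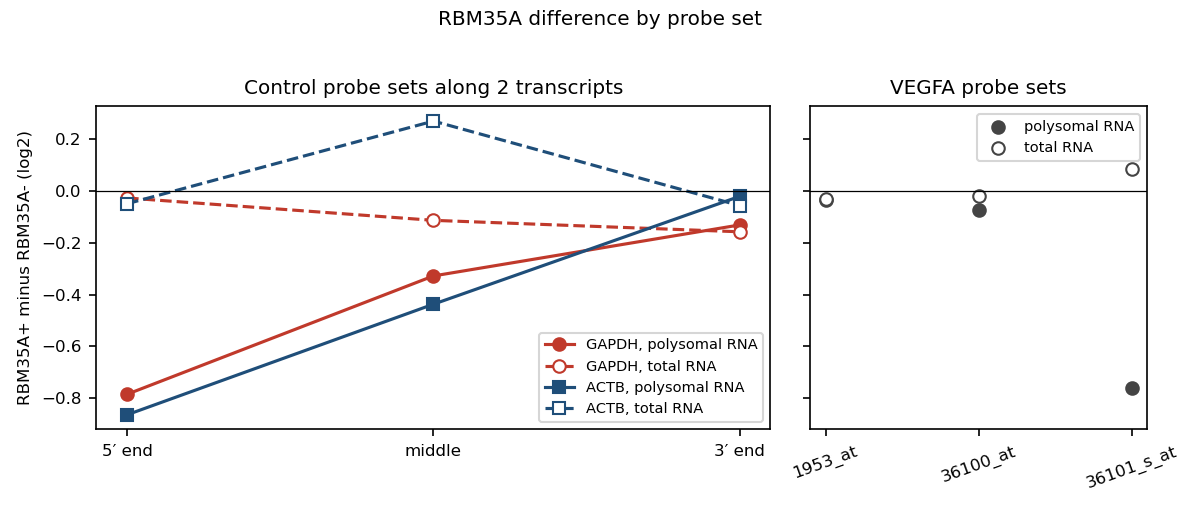
Log2 difference RBM35A+ minus RBM35A- for control probe sets at 3 places along the GAPDH and beta-actin (ACTB) transcripts (left) and for the 3 VEGFA probe sets (right); filled symbols are polysomal RNA and open symbols total RNA, 1 value each. In polysomal RNA the controls run from −0.79 (GAPDH) and −0.86 (ACTB) at the 5′ end to −0.13 and −0.02 at the 3′ end, and the third VEGFA probe set lies at −0.76.

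Counted together, 2 of the 27 analysed members (7.41%) had a polysomal difference of 1.5-fold or more below 0, against 1.23% of all 3588 genes, and 0 were in total RNA, against 0.613%. The polysomal count was 1 without probe sets of shared sequence and 0 with a floor of 6. The members' median was −0.06 in polysomal RNA and −0.05 in total RNA, against 0.01 in polysomal and 0.00 in total RNA over all genes. In polysomal RNA 16 members (59.3%) were below 0 and 8 (29.6%) above, against 40.4% below and 53.3% above over all genes. In total RNA 18 (66.7%) were below and 9 (33.3%) above, against 45.6% below and 46.5% above over all genes, NDRG1 being counted among those below. Intestinal epithelial markers were also mostly below 0 in polysomal RNA (10 of 13, or 76.9%, median −0.21), with a median of 0.01 in total RNA. The polysomal difference exceeded the total RNA difference by 1.5-fold in 0 members, against 1.31% of all genes, and fell short of it by 1.5-fold in 0, against 2.12%. P4HA1 (0.49) and ENO1 (0.36) lay highest on this scale and PCK1 (−0.57) and ALDOA (−0.50) lowest, with an SD between probe sets of 0.24. With a floor of 6, P4HA1 was at 0.35 and PCK1 at 0.17.

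An additive model of RBM35A state and RNA fraction, fitted with limma over all 3588 genes, called 0 genes for RBM35A state at an adjusted p under 0.05 (0%), and 369 genes had an unadjusted p under 0.05. With 1 residual degree of freedom, its p-values say how alike a difference was in the 2 fractions, and nothing of other cultures. Of the 27 members tested, 4 had an unadjusted limma p under 0.05, to be set beside the 369 of all 3588 genes. These members were PKM, PCK1, BNIP3 and ALDOC. PKM had a mean difference of 0.76 (SE 0.11, limma adjusted p = 0.369), higher in RBM35A+ cells in 2 of 2 fractions. The mean differences were −0.65 for PCK1 (limma adjusted p = 0.386), −0.46 for BNIP3 (0.397) and −0.38 for ALDOC (0.442), each lower in 2 of 2 fractions. Without the floor limma called 15 genes, PKM being the 1 member among them, with an adjusted p of 0.0486.

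Polysomal RNA was set against total RNA in each cell state. RNA fraction changed together with extraction and any polyA selection, so the difference cannot be read as ribosome loading alone. The fractions were normalized apart from each other, so these differences compare places within separate distributions. Members were mostly lower in polysomal RNA: in RBM35A+ cells 8 of 27 (29.6%) lay 2-fold or more below total RNA, against 7.94% of all genes, and 6 (22.2%) were in RBM35A- cells, against 7.92%. At least 2-fold higher were 2 members in RBM35A+ cells (7.41%), against 14.2% of all genes, and 1 in RBM35A- cells (3.70%), against 13.8%. The members' median was −0.61 in RBM35A+ and −0.56 in RBM35A- cells, against 0.09 over all genes in both. Other lists were lower in polysomal RNA too. Intestinal epithelial markers had medians of −0.66 in RBM35A+ and −0.44 in RBM35A- cells, with 76.9% of 13 below 0 in each. Genes of pyruvate dehydrogenase and the citric acid cycle had medians of −0.39 in RBM35A+ and −0.52 in RBM35A- cells, with 4 of 21 (19.0%) at least 2-fold lower in each. Whether the members differed from these lists was not tested.

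With the floor of 5, PCK1, P4HA1, ALDOC, ALDOA and GPI were at least 2-fold lower in both cell states. PCK1 was lowest in RBM35A+ cells (−2.39), with −1.82 in RBM35A- cells. P4HA1 was lowest in RBM35A- cells (−2.18), with −1.69 in RBM35A+ cells. The polysomal values of P4HA1 lay near the floor, at 5.19 in RBM35A+ and 5.05 in RBM35A- cells. With a floor of 6 its differences were −0.88 in RBM35A+ and −1.23 in RBM35A- cells. The aldolases followed, ALDOC at −2.15 in RBM35A+ and −1.77 in RBM35A- cells and ALDOA at −2.06 in RBM35A+ and −1.56 in RBM35A- cells. GPI was at −1.59 in RBM35A+ and −1.30 in RBM35A- cells. They span glycolysis, gluconeogenesis and a hypoxia target. LDHA (−1.07), BNIP3 (−1.06) and FBP1 (−1.04) were past 2-fold in RBM35A+ cells, with −0.86 (LDHA), −0.63 (BNIP3) and −0.96 (FBP1) in RBM35A- cells, and ENO1 (−1.01) passed in RBM35A- cells, with −0.64 in RBM35A+ cells. PKM was lower in polysomal RNA as well, at −0.71 in RBM35A+ and −0.88 in RBM35A- cells. PDK1 and NDRG1 had polysomal values under the floor. PDK1 was at −0.62 or lower in RBM35A+ and −0.71 or lower in RBM35A- cells. As deposited, PDK1 was at −2.28 in RBM35A+ and −2.37 in RBM35A- cells. NDRG1 was at −0.21 or lower in RBM35A- cells and −2.56 as deposited. The ranking of P4HA1 as lowest in RBM35A- cells therefore depends on the floor. In RBM35A+ cells PGK1 was at −0.92, PGAM1 at −0.61, TKT at −0.79, TALDO1 at −0.39 and PFKM at −0.52. In RBM35A- cells PGK1 was at −0.62, PGAM1 at −0.46, TKT at −0.96, TALDO1 at −0.56 and PFKM at −0.23.

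The members above 0 were few. VEGFA read 10.94 in polysomal RNA of RBM35A+ cells, against 9.21 in their total RNA, and 10.98 in polysomal RNA of RBM35A- cells, against 9.24 in their total RNA, a difference of 1.74 in each state. Its second probe set gave 1.69 in RBM35A+ and 1.74 in RBM35A- cells, whereas the third gave −0.42 in RBM35A+ and 0.43 in RBM35A- cells. ENO2 was at 1.03 in RBM35A+ and 0.86 in RBM35A- cells, ADM at 0.50 in RBM35A+ and 0.86 in RBM35A- cells, and PFKP at 0.48 in RBM35A+ and 0.27 in RBM35A- cells. The total RNA values of ADM lay near the floor, at 5.12 in RBM35A+ and 5.15 in RBM35A- cells. PGD, TPI1, LDHB and PFKL lay between −0.16 and 0.10 in both states. The SD of this quantity between probe sets of a gene was 0.78 in RBM35A+ and 0.70 in RBM35A- cells, far above that of the RBM35A differences. The controls along single transcripts also varied. For GAPDH, polysomal minus total was −2.59 for the 5′ control, −1.42 for the middle one and −0.14 for the 3′ one in RBM35A+ cells, and −1.84, −1.21 and −0.16 in RBM35A- cells. For beta-actin it was −5.32, −3.00 and −0.27 from the 5′ to the 3′ control in RBM35A+ cells, and −4.51, −2.29 and −0.30 in RBM35A- cells. The spread along beta-actin was wider than the whole range of the members, and the part of probe place in the members' values was not tested.

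**Figure D4:**
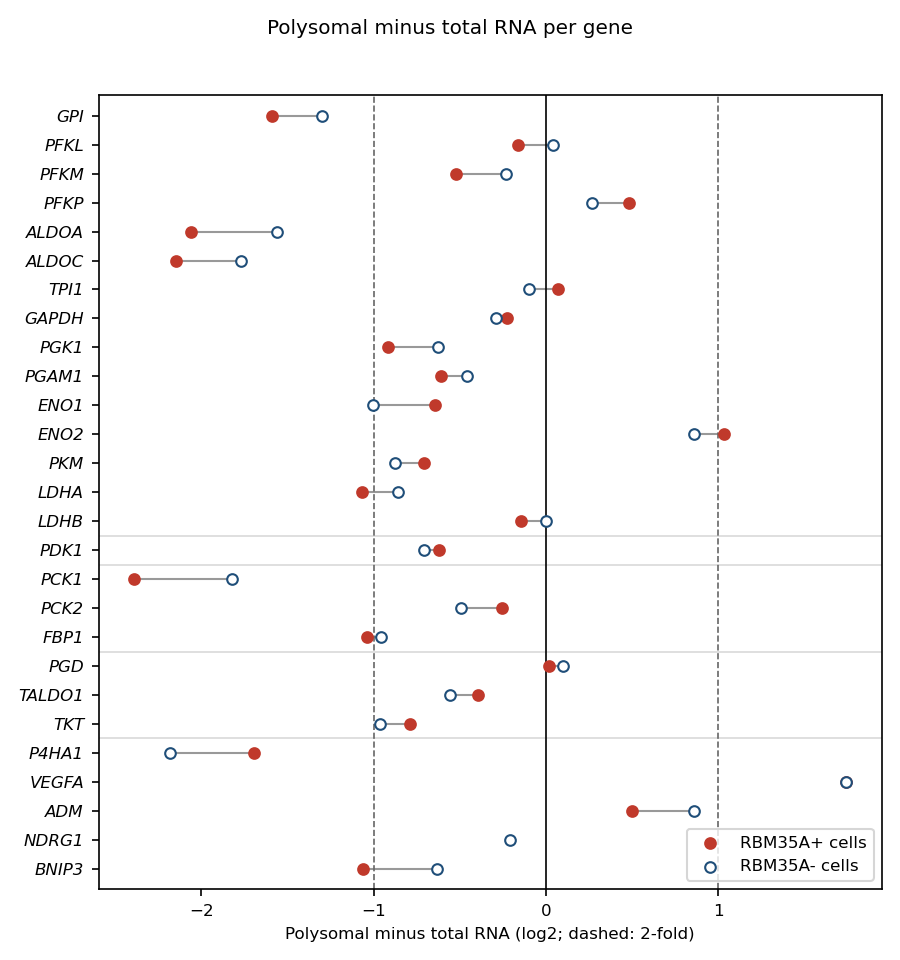
Log2 difference polysomal minus total RNA of each analysed gene in RBM35A+ cells (filled) and RBM35A- cells (open), 1 pair of arrays each; dashed lines mark 2-fold, and a difference with both values under the floor is not drawn. Among these floored values VEGFA lies highest (1.74 in both states), PCK1 (−2.39) and ALDOC (−2.15) lie lowest in RBM35A+ cells and P4HA1 (−2.18) in RBM35A- cells.

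Neighbouring pathways were set beside the members for the RBM35A differences. Of 21 analysed genes of pyruvate dehydrogenase and the citric acid cycle, 0 were past 1.5-fold in either direction in polysomal or total RNA. SDHA, a subunit of succinate dehydrogenase, was highest in polysomal RNA (0.42) and the cytosolic aconitase ACO1 lowest (−0.56), while SUCLG2, a succinyl-CoA ligase subunit, was lowest in total RNA (−0.42). Of 9 other analysed enzymes and transporters of sugar metabolism, 1 was past 1.5-fold higher in polysomal RNA and 0 lower. It was the galactokinase GALK1, which read 5.74 in polysomal RNA of RBM35A+ cells, against 5.06 in RBM35A- cells (0.68), and 5.75 in total RNA of RBM35A+ cells, against 6.16 in RBM35A- cells (−0.40). Both polysomal values of GALK1 lay near the floor. Of 17 other analysed hypoxia and HIF pathway genes, 1 was at least 1.5-fold lower in polysomal RNA and 0 higher. It was DDIT4, a stress-induced inhibitor of mTORC1, at −0.73, with −0.37 in total RNA. HIF1A, the oxygen-regulated HIF subunit, differed by −0.02 in polysomal and 0.11 in total RNA. VHL, which targets that subunit for breakdown, was at −0.45 or lower in polysomal RNA, where 1 value was floored, and at −0.18 in total RNA. No (0) gene of these 3 lists passed 1.5-fold in total RNA. Their medians were between −0.01 and 0.07 in polysomal RNA and between −0.02 and 0.07 in total RNA.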

How the data were processed

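Log2 signals of 4 arrays, 1 per group, were used as deposited by the authors, made with GCRMA per the submitters' processing notes (version not given in the sources used here). Per the labels' protocols, 10 µg of RNA was labelled per array. Sorted values differed by at most 6.61e-06 within a fraction but by up to 0.227 between fractions, so quantile normalization was within each fraction; it removes shifts common to most genes of an array. Symbols were updated by gene ID (RefSeq, GRCh38.p14; 10934 of 10943 probe sets with 1 symbol). Controls (67) and probe sets with several (546) or no (1070) symbols were left out. The probe set of highest mean stood for each gene. Members, lists and thresholds were chosen with earlier results of these data known. Named genes were all members and some of the 2 highest and 2 lowest genes of each other list in either fraction; HIF1A was added after its values were seen. The model was run in limma 3.58.1 (R 4.3.3), adjusted by Benjamini-Hochberg over all genes analysed. It was also run on simulated data with differences placed alike in both fractions. That run says nothing of the error between cultures. The number of arrays limits the precision. Alternatives were floors of 4, 6 or none, means over probe sets, no probe sets of shared sequence, and joint quantile normalization.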

Additional observations from a re-analysis of the deposited data

Results flagged for a closer look

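A control probe set at the 5′ end of GAPDH, outside the gene values used for the comparisons, differed by −0.79 between polysomal RNA of RBM35A+ and RBM35A- cells, past 1.5-fold, while the probe set used for the gene differed by 0.00. The third probe set of VEGFA, likewise not used for the gene value, differed by −0.76 in polysomal RNA, while the probe set used differed by −0.03. Neither difference appeared in total RNA, where the values were −0.03 for the GAPDH control and 0.09 for the VEGFA probe set.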

How the results depend on the processing

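With a floor of 4 or none, members 1.5-fold lower in total RNA numbered 1 instead of 0, and members with a polysomal difference 1.5-fold above the total RNA difference 1 instead of 0; both are NDRG1. With a floor of 6, members 1.5-fold lower in polysomal RNA numbered 0 instead of 2, and the median difference of differences was −0.005. With the mean of all probe sets, members 1.5-fold higher numbered 0 in each fraction, since the second PKM probe set lies at the floor, and 1 was lower in polysomal RNA. That last count was also 1 without probe sets of shared sequence, where PCK1, ENO1 and GAPDH could not be analysed. It was 1 too with the mean of measured probe sets, an alternative chosen after seeing the data. With joint quantile normalization, 1 member instead of 2 was 2-fold higher in polysomal than in total RNA of RBM35A+ cells. Without the floor limma called 15 genes and 1 member. The other counts and medians over members stayed within 1.5 times or within the probe error under these settings. No RBM35A difference of a member that was past 1.5-fold changed sign. Fraction differences of single members were followed only where both cell states reached 2-fold (ALDOA, ALDOC, GPI, PCK1, P4HA1 and VEGFA). None of these changed sign. Low signal limits what can be said of HK2, PDK1, NDRG1, SLC2A1, SLC2A3, PFKFB3, PFKFB4 and ADM. It also limits the polysomal values of PCK1, BNIP3 and P4HA1.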

Other observations

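Some members carried signal below the floor that the comparisons do not use. HK2, the inducible hexokinase of many tumours, read 2.79 in polysomal RNA of RBM35A+ cells, against 2.87 in RBM35A- cells, and 3.80 in total RNA of RBM35A+ cells, against 4.30 in RBM35A- cells. A second PGK1 probe set read 3.07 in polysomal RNA of RBM35A+ cells, against 3.08 in RBM35A- cells, and 6.98 in total RNA of RBM35A+ cells, against 7.23 in RBM35A- cells. The PGK1 probe set used for the gene read 11.41 in polysomal RNA of RBM35A+ cells and 12.32 in their total RNA, so the 2 probe sets differ in how far polysomal RNA lies below total RNA.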
